A study of Mus musculus with 9 samples.

Results

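Transcripts of 10 genes that build and position the actin network of the oocyte were followed across XX, XO and XY oocytes. The genes were taken by symbol from the deposited UMI counts, and all 10 were found among 28052 genes. They comprise the actin nucleators Fmn2, Spire1 and Spire2, the vesicle GTPase Rab11a and its motor Myo5b, the Actr2 and Actr3 subunits of the Arp2/3 complex, the cytoplasmic actins Actb and Actg1, and the actin-severing protein gene Cfl1. Each genotype was represented by 3 pools of 30 oocytes in the growth phase from C57BL/6 females at 18 dpp, with 10 oocytes of 50 to 55 μm and 20 of 55 to 60 μm in a pool. XY females carried the Y chromosome of the B6.YTIR strain and were littermates of the XX females. The sires of the XO females were Paf carriers, from a C3H/HeSnJ stock backcrossed to B6, so the XO complement and the breeding of the XO females cannot be told apart. Pools are named here by genotype and replicate number, XX1 to XY3. How many females gave the oocytes of a pool is not given in the sources used here, and p-values measure the spread between these pools.

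In the mouse oocyte, the formin encoded by Fmn2 and the Spire proteins together nucleate unbranched actin filaments from vesicles that carry Rab11a, and myosin Vb moves these vesicles along the filaments. The resulting cytoplasmic mesh keeps the nucleus central in the growing oocyte and later carries the meiotic spindle to the cortex, which allows a small polar body to form. The Arp2/3 complex nucleates branched filaments in the cortex, where the spindle comes to rest, and cofilin severs filaments and returns actin monomers to the pool.

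Upstream sequences of 7 of the 10 genes were taken from RefSeq (GRCm38.p6), namely Fmn2, Spire2, Rab11a, Actr2, Actr3, Actg1 and Cfl1, and no entry was used for Spire1, Myo5b or Actb. The 250 bases before each start site were searched on both strands for the TATA box, spelled TATAAA, and for the CAAT box, which reads CCAAT. They were also searched for the GC box, given by the letters GGGCGG, and for the CArG box, the serum response factor motif known from actin genes. The CAAT box was present in 5 of the 7 windows and in 33.8% of all 32851 promoter windows of the same length. The GC box was present in 6 of the 7 windows and in 32.7% of all windows. The TATA box was present in none of the 7 windows and in 12.4% of all windows. The CArG box was present in the windows of Actg1 and Rab11a and in 1.47% of all windows. The 3 sequences below were chosen because Fmn2 was the most abundant transcript of the group, and because Actg1 and Rab11a held the CArG box and varied in opposite directions between the pools. Capitals mark the motifs, 2 GC boxes of Actg1 overlap each other, and bases within annotated exons are left out. The Fmn2 sequence lies at chr1:174501575-174501824 (plus strand), that of Rab11a at chr9:64737759-64738006 (minus strand) and that of Actg1 at chr11:120348543-120348677 (minus strand).
Fmn2: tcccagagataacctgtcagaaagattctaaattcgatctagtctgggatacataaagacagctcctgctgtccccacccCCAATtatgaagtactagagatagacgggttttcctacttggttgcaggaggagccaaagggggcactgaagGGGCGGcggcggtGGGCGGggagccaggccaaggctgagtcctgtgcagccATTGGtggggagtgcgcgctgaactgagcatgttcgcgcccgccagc
Rab11a: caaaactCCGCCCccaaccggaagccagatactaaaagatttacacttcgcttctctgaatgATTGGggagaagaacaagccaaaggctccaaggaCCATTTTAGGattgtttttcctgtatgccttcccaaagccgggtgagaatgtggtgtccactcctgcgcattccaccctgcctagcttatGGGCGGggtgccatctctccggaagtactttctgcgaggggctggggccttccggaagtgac
Actg1: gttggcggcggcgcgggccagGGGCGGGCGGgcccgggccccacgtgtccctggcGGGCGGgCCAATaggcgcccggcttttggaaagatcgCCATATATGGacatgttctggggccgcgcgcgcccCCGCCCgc
These matches describe letters in the windows, and no binding was measured.

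The libraries held between 2130145 and 3157338 UMIs on genes. A UMI is a random tag that marks a single captured 5′ end, so that PCR copies are counted once, and levels are given as normalized CPM, the UMIs divided by the gene total and a spike-in factor of the library. This is a TMM factor computed among the spike-ins alone, so it does not use the amount of spike-ins relative to gene UMIs. Spike-ins made up 0.20% (XX3) to 0.86% (XY1) of the UMIs, and the factors of these pools were 1.25 and 1.01. Among 12 oocyte markers, 11 had more than 10 UMIs in each genotype, and Sohlh1 had 1 UMI over all pools. Of 12 granulosa cell markers, Nr5a2 (699 UMIs over all pools), Cyp19a1 (463) and Kitl (292) made up most of the counts, Inhba had 32 and Fshr 31, and the other 7 had 3 or fewer, with the defining markers Foxl2, Amh and Hsd17b1 at 0. The summed level of the oocyte markers was 25900 to 28180 normalized CPM in XX, 17980 to 54510 in XO and 19270 to 26800 in XY pools, so that the XO pools were the least alike. Summed granulosa cell markers lay between 48.0 and 66.7 in XX, 55.9 and 67.7 in XO and 57.0 and 92.1 normalized CPM in XY pools. Summed markers of theca, stroma and smooth muscle lay between 34.7 and 36.9 in XX, 28.0 and 104 in XO and 24.6 and 45.0 in XY pools, and Myh11 (689 UMIs over all pools) and Actg2 (256) made up most of these 11 markers, while Col1a2, Col3a1 and Acta2 were at 0. Those of blood and endothelium lay between 19.3 and 50.6 in XX, 16.6 and 134 in XO and 28.4 and 59.2 in XY pools, with Pecam1 (1104 UMIs over all pools) making up nearly all of these 8 markers, Cdh5 at 37, and Ptprc, Hba-a1, Hbb-bs and Tie1 at 0. The part of these markers in the results was not tested. Y-linked Ddx3y had 0 UMIs in all XX and XO pools and 352 to 486 in the XY pools. Over the 10993 genes tested, the median log2 difference was -0.46 for XX minus XO, -0.19 for XX minus XY and -0.30 for XY minus XO with the spike-in factors. With TMM factors computed on the genes these medians were -0.03, -0.04 and -0.02.

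The 10 genes spanned a wide range of levels. Averaged over the 9 pools, Fmn2 (366 normalized CPM) and Myo5b (365) were the most abundant, ahead of 96.4% of the genes tested. Actg1 followed at 87.1, Rab11a at 66.3, Actr3 at 58.3, Actr2 at 46.1, Cfl1 at 39.8, Spire1 at 37.8 and Actb at 33.1 normalized CPM. Spire2 was near the detection limit at 0.222. Since UMIs tag 5′ ends, these levels are not expected to grow with transcript length, and division by the length of the merged exons kept Fmn2 highest with 46.0 normalized CPM per kb, followed by Myo5b with 37.4 and Actg1 with 32.8. Rab11a had 22.1, Cfl1 14.0, Actr3 12.6, Actb 12.4, Actr2 8.85 and Spire1 4.87 normalized CPM per kb. In this order per kb, neighbouring genes had overlapping ranges over the 9 pools, except Spire1 and Spire2. Per kb, Rab11a was above Cfl1, Actb above Actr2 and Actr2 above Spire1 in all 9 pools. Myo5b was above Actg1 and Actr3 above Actb, again per kb, in only 5 of 9. These counts hold for the divided levels alone. Before the division, mean Actr2 (46.1) and Actr3 (58.3) were above Actb (33.1), and Myo5b (365) was far above Actg1 (87.1). The cytoplasmic actin most often used as a reference gene, Actb, was thus below the formin Fmn2 on both scales.

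**Figure D1:**
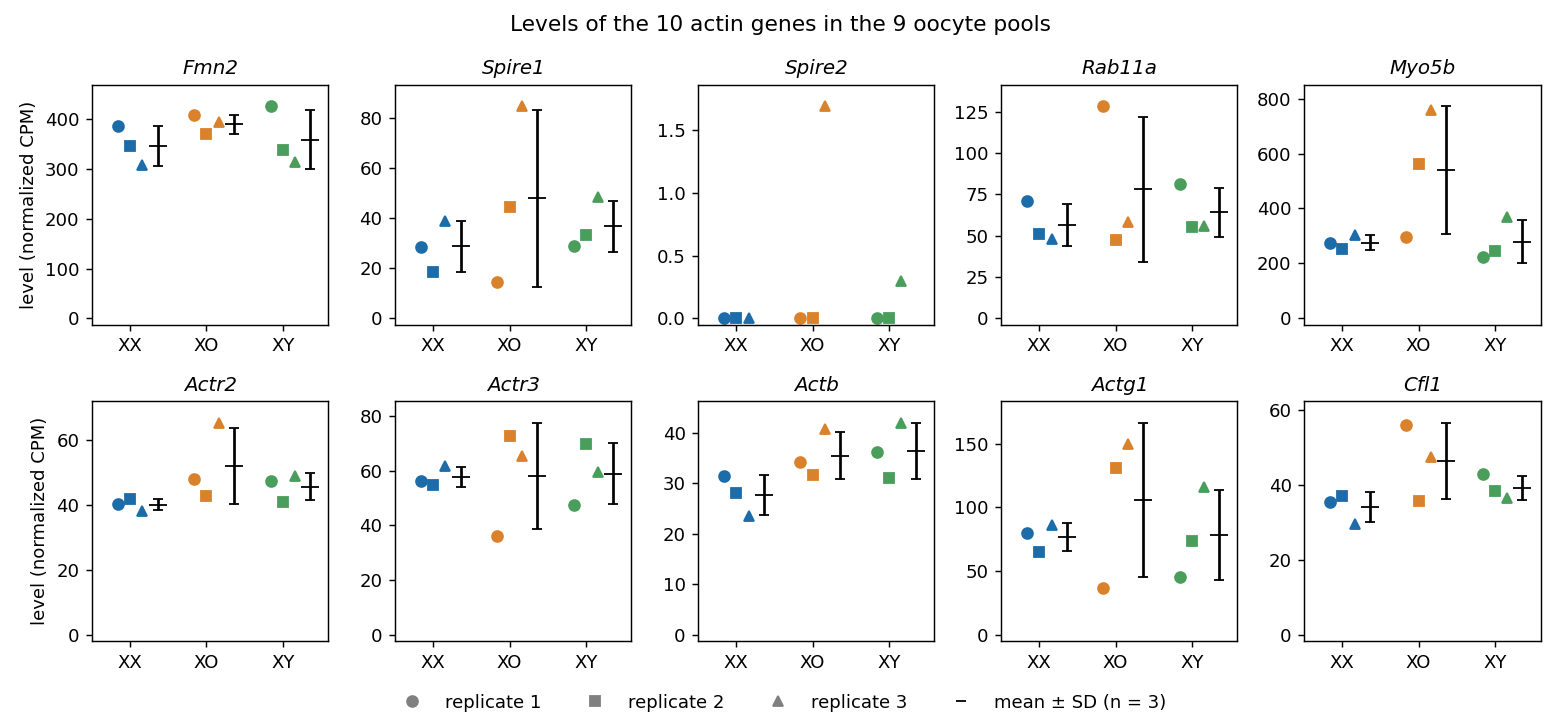
Level of each gene (y axis, normalized CPM, from 0, a separate scale per panel) in the 3 XX, 3 XO and 3 XY pools; points are pools, marker shapes give the replicate number, and bars are the mean ± SD (n = 3), left out for Spire2. Myo5b lay at 562 and 760 in XO2 and XO3 and between 225 and 368 in the other pools, while Fmn2 lay between 307 and 427 in all 9.

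Fmn2, the formin that nucleates the cytoplasmic actin mesh of the oocyte (chr1:174501825-174822729, plus strand, GRCm38), was at 388, 347 and 307 normalized CPM in XX1 to XX3. It was at 408, 370 and 394 in XO1 to XO3 and at 427, 338 and 314 in XY1 to XY3. The 3 genotypes overlapped, and the highest pool was 1.39 times the lowest, the narrowest range of the 9 genes tested. Means were 347 ± 40.1 (XX), 391 ± 19.1 (XO) and 359 ± 59.6 (XY), as mean ± SD (n = 3), from 698 to 1088 UMIs per pool. The log2 difference was -0.17 for XX minus XO (95% interval -0.80 to 0.46), -0.05 for XX minus XY (-0.67 to 0.58) and -0.12 for XY minus XO (-0.75 to 0.50). No difference was detected, and the intervals leave differences of up to 0.80 on the log2 scale. The 3 transcripts whose levels followed Fmn2 most closely over the 9 pools were Gm28051 (Pearson r = 0.97), Sema3d (r = 0.94) and Gm20604 (r = 0.94), on the log2 scale and as a description, since these pools share scaling factors.

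Spire1, which nucleates actin together with Fmn2 (chr18:67488209-67610790, minus strand), was more variable. It was at 28.5, 18.6 and 39.0 normalized CPM in XX1 to XX3, at 14.5, 44.5 and 84.7 in XO1 to XO3 and at 28.8, 33.2 and 48.3 in XY1 to XY3. Both the lowest and the highest pool were XO, 5.84 times apart, and the genotypes overlapped. The log2 difference was -0.73 ± 0.56 (SE) for XX minus XO, -0.36 ± 0.55 for XX minus XY and -0.38 ± 0.55 for XY minus XO, none past the threshold of an unadjusted p of 0.05 (edgeR, adjusted p = 0.473, 1 and 0.802). Without XO1, the value for XX minus XO was -1.16 and passed it.

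Spire2, the other Spire gene (chr8:123332713-123369515, plus strand), had 0 UMIs in all XX pools, 3 in XO3, 1 in XY3 and 0 in the other XO and XY pools. A count of 0 over the 3 XX pools allows up to 3 UMIs, or 0.335 normalized CPM, for counting error alone. Spire2 did not pass the filter on low counts and was not tested. The gene Gm20388 overlaps Spire2 on the same strand and had 38 UMIs over all pools, so that reads could have been counted under it.

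Rab11a, the GTPase of the recycling vesicles (chr9:64715299-64737758, minus strand), was at 71.2, 50.8 and 48.1 normalized CPM in XX1 to XX3, at 128, 47.6 and 58.1 in XO1 to XO3 and at 81.3, 55.0 and 55.8 in XY1 to XY3. XO1 was the highest pool and XO2 the lowest, and the genotypes overlapped. The log2 difference was -0.46 ± 0.40 for XX minus XO, -0.17 ± 0.40 for XX minus XY and -0.29 ± 0.40 for XY minus XO (SE, edgeR, adjusted p = 0.537, 1 and 0.792), none past the threshold. Without XO1 the differences from XO were 0.10 for XX and 0.27 for XY, of the opposite sign. An annotated microRNA gene within Rab11a, Gm47308, lies on the same strand and had 129 UMIs over all pools.

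Myo5b, the motor of the Rab11a vesicles (chr18:74440936-74771493, plus strand), was the only one of the 9 genes tested that differed between genotypes, and it did so at the unadjusted threshold alone. It was at 276, 251 and 302 normalized CPM in XX1 to XX3, at 295, 562 and 760 in XO1 to XO3 and at 225, 246 and 368 in XY1 to XY3. XO2 and XO3 were above every XX and XY pool, whereas XO1 lay below XX3 and XY3, so that the genotypes overlapped. Means were 276 ± 25.6 (XX), 539 ± 233 (XO) and 280 ± 77.4 (XY), as mean ± SD (n = 3). Myo5b was lower in XX than in XO by a log2 difference of -0.97 ± 0.39 (SE, 95% interval -1.85 to -0.08, edgeR, adjusted p = 0.252). It was lower in XY than in XO by -0.95 ± 0.39 (-1.83 to -0.07, adjusted p = 0.494). XX and XY differed by -0.02 (-0.89 to 0.85). Both calls share the XO pools. Relative to the median of all genes tested, the differences were -0.51 for XX and -0.65 for XY, both against XO, and 24.9% and 16.5% of the genes tested had a lower value.

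The call for Myo5b depended on single pools and on the scaling. In XX against XO, the call was lost without XX1 (log2 difference -0.96), XX2 (-0.90), XX3 (-1.03), XO2 (-0.93), XO3 (-0.63) or XY2 (-0.97), and it was kept without XO1 (-1.26), XY1 or XY3. In XY against XO, it was lost without XX1, XX2 or XX3 (-0.95 each), XO2 (-0.92), XO3 (-0.61), XY1 (-0.81) or XY2 (-0.86) and kept without XO1 (-1.24) or XY3 (-1.19). With TMM factors on the genes, Myo5b was at -0.47 for XX minus XO and -0.61 for XY minus XO, and neither passed. The oocyte growth factor gene Gdf9 was at 339, 869 and 2432 normalized CPM in XO1 to XO3, between 252 and 319 in XX and between 234 and 350 in XY pools, so that it was highest in the same XO pools as Myo5b. Pecam1, listed as an endothelial marker, was likewise at 14.5, 109 and 132 in XO1 to XO3 and between 18.6 and 56.8 in the XX and XY pools. Other endothelial markers were low or absent, with Cdh5 at 37, Kdr at 8 and Tie1 at 0 UMIs over all pools. The oocyte marker Zp3 had the same order as Pecam1, at 12.4, 341 and 570 in XO1 to XO3. The part of Gdf9, Pecam1 or Zp3 in the difference of Myo5b was not tested, and in pools of oocytes a change in the cells present cannot be told apart from a change in RNA per cell.

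Actr2 and Actr3 encode the actin-related subunits of the Arp2/3 complex, which form the seed of a branched filament. Actr2 (chr11:20062304-20112913, minus strand) was at 40.3, 42.0 and 38.4 normalized CPM in XX1 to XX3, at 48.2, 42.9 and 65.5 in XO1 to XO3 and at 47.4, 41.0 and 48.9 in XY1 to XY3. All XX pools were below all XO pools, by 42.0 against 42.9 at the closest, which was also seen for Actb but for no other of the 9 genes tested and for 13.6% of all genes tested. The log2 difference of Actr2 was -0.37 ± 0.26 for XX minus XO (SE, edgeR, adjusted p = 0.432), -0.19 ± 0.26 for XX minus XY and -0.19 ± 0.26 for XY minus XO, none past the threshold. Actr3 (chr1:125392905-125435727, minus strand) was at 56.3, 55.0 and 61.8 in XX1 to XX3, at 36.2, 72.9 and 65.5 in XO1 to XO3 and at 47.4, 69.7 and 59.5 in XY1 to XY3. Its genotypes overlapped, with XO1 lowest and XO2 highest, and their means were 57.7, 58.2 and 58.8. The log2 difference of Actr3 was -0.01 for XX minus XO (95% interval -0.71 to 0.69), -0.03 for XX minus XY (-0.73 to 0.67) and 0.02 for XY minus XO (-0.68 to 0.72).

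Actb and Actg1 encode β- and γ-actin, the cytoplasmic actins that the nucleators assemble. Actb (chr5:142903115-142906754, minus strand) was at 31.3, 28.0 and 23.5 normalized CPM in XX1 to XX3, at 34.2, 31.5 and 40.6 in XO1 to XO3 and at 36.3, 30.9 and 42.0 in XY1 to XY3. The XX pools were again below all XO pools, by 31.3 against 31.5 at the closest, and they overlapped with XY. The log2 difference was -0.36 ± 0.26 for XX minus XO, -0.40 ± 0.26 for XX minus XY and 0.04 ± 0.26 for XY minus XO (SE, edgeR, adjusted p = 0.451, 1 and 0.960), none past the threshold. Actg1 (chr11:120345690-120348542, minus strand) was at 80.1, 64.8 and 86.2 in XX1 to XX3, at 36.8, 131 and 150 in XO1 to XO3 and at 45.5, 73.9 and 116 in XY1 to XY3. The lowest and the highest pool were both XO, 4.09 times apart, so that γ-actin transcripts varied more between pools than β-actin transcripts, whose highest pool was 1.79 times the lowest. The log2 difference of Actg1 was -0.46 ± 0.51 for XX minus XO, -0.03 ± 0.51 for XX minus XY and -0.43 ± 0.51 for XY minus XO (SE, edgeR, adjusted p = 0.631, 1 and 0.757), none past the threshold. Without XO1, Actg1 was lower than in XO by -0.87 in XX and by -0.84 in XY oocytes, both past the threshold. Actin genes have near-identical copies, and the copy Actg-ps1 had a mean of 3.34 normalized CPM, so that the split of reads between copies is uncertain. A microRNA gene annotated within Actg1, Gm23419, had 291 UMIs over all pools.

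Cfl1, the cofilin gene (chr19:5490455-5495201, plus strand), was at 35.3, 37.1 and 29.6 normalized CPM in XX1 to XX3, at 55.9, 35.7 and 47.4 in XO1 to XO3 and at 42.8, 38.4 and 36.5 in XY1 to XY3. XO1 was the highest pool and XX3 the lowest, and the genotypes overlapped. The log2 difference was -0.45 ± 0.26 for XX minus XO, -0.21 ± 0.26 for XX minus XY and -0.24 ± 0.26 for XY minus XO, none past the threshold (SE, edgeR, adjusted p = 0.368, 1 and 0.734). Snx32, which overlaps Cfl1 on the opposite strand, had 40 UMIs over all pools, and the authors aligned in stranded mode.

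Counted together, 1 of the 9 genes tested (Myo5b) passed an unadjusted p of 0.05 as lower in XX than in XO, beside 16.7% of all genes tested, and none as higher, beside 1.4%. For XX against XY, 0 of the 9 passed, beside 4.39% of all genes lower and 1.41% higher in XX. For XY against XO, 1 of the 9 (Myo5b) passed as lower in XY, beside 8.24% of all genes, and none as higher, beside 1.69%. No gene of the group passed after Benjamini-Hochberg adjustment over all genes tested. The median log2 difference of the 9 genes was -0.45, -0.17 and -0.24 for XX minus XO, XX minus XY and XY minus XO, beside -0.46, -0.19 and -0.30 for all genes. Of the 9 genes, 9, 9 and 7 were below 0, as were 80.3%, 69.4% and 71.9% of all genes tested. Relative to the median of all genes, 4, 3 and 3 of the 9 were lower. The low values of the group in XX as compared with XO were thus of the size seen over the whole transcriptome. The paper reported the opposite direction for many autosomal genes, with lower transcript levels in XO than in XX and XY oocytes. Its model held batch covariates, and the reason for the different direction was not tested.

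**Figure D2:**
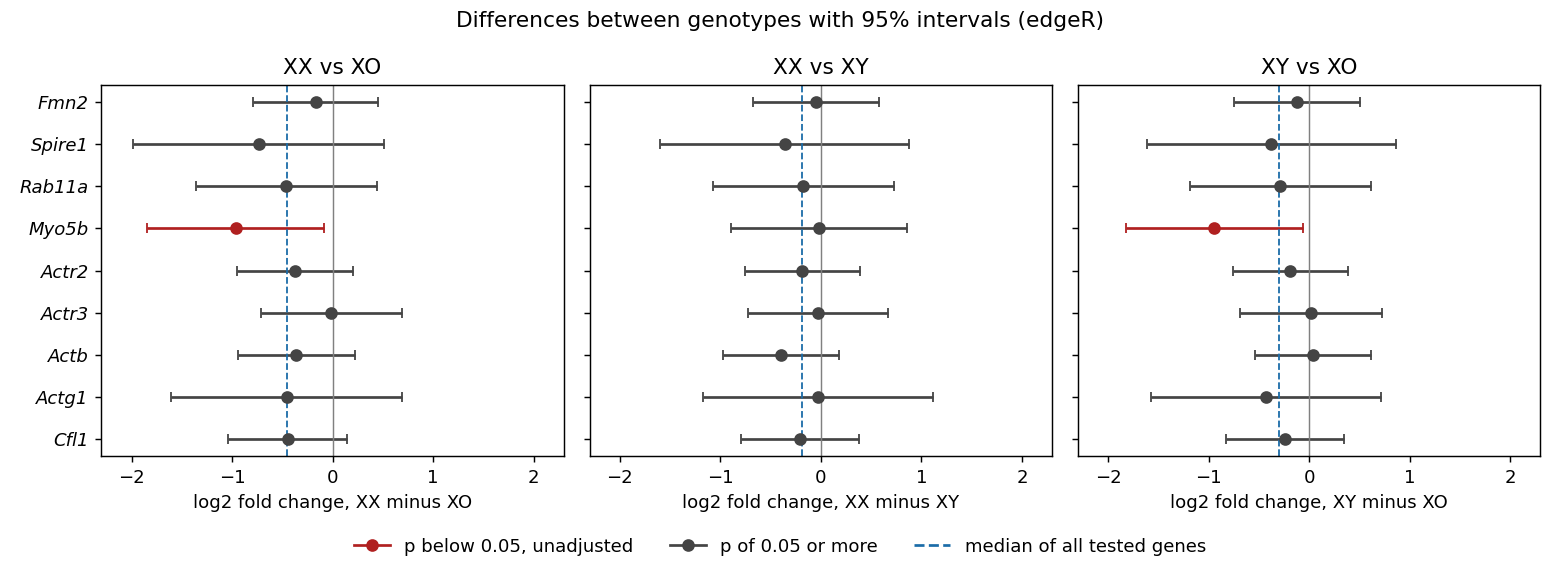
Log2 differences between genotypes (x axis, first minus second genotype) for the 9 genes tested, with 95% intervals (edgeR, 3 pools per genotype); the dashed line is the median of all 10993 genes tested. Of the 27 intervals, those of Myo5b in XX vs XO and XY vs XO lie below 0, and most points of XX vs XO lie near the median of -0.46.

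The direction of these differences depended on how libraries were scaled. With TMM factors on the genes, Fmn2, Actr2, Actr3, Actb and Actg1 had positive XX minus XO values (0.26, 0.09, 0.45, 0.08 and 0.04), and no member passed the threshold. The genes called over the whole transcriptome were split likewise, with 7.75% of the calls higher in XX than in XO under the spike-in factors and 49.5% under TMM, 24.3% and 48.3% for XX against XY, and 17.0% and 59.5% for XY against XO. In the deposited log2 matrix without batch effects, Spire1, Actr3 and Actg1 were past the same threshold as higher in XX than in XO, by 0.73, 0.84 and 0.92 on the log2 scale (limma). In that matrix, Spire1 (0.98), Actr3 (0.72), Actb (0.47) and Actg1 (0.73) were also past it as higher in XY than in XO, and Myo5b did not pass in either comparison (0.05 and -0.09). Of all 10993 genes tested, 3972 were past the threshold in that matrix as higher in XX than in XO, and 4117 as higher in XY than in XO. The limma fit did not allow for the terms that had already been removed from the values. With surrogate variables in the model, Rab11a (-0.50), Myo5b (-0.72) and Cfl1 (-0.48) passed as lower in XX than in XO (limma-voom), and Myo5b also in XY (-0.70). With these variables, 3598 of all 10993 genes tested passed as lower in XX than in XO, and 2323 as lower in XY than in XO.

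**Figure D3:**
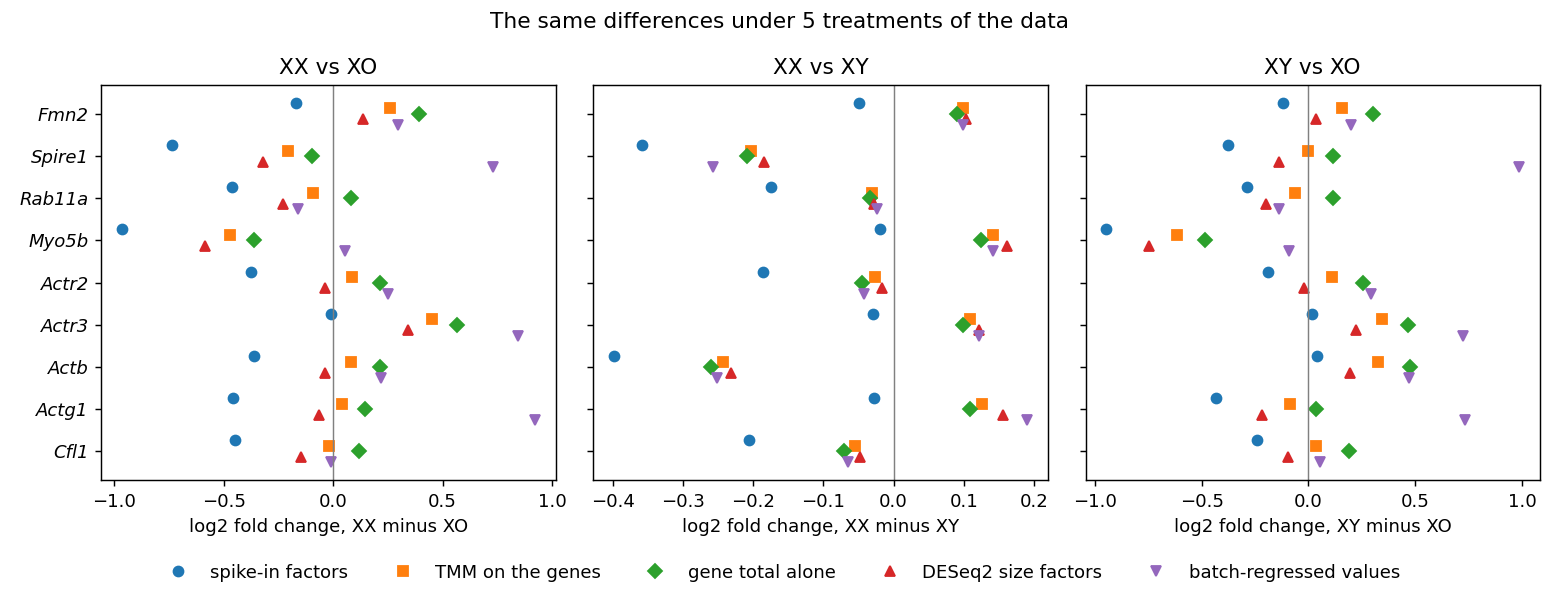
Log2 difference of each of the 9 genes tested (x axis, first minus second genotype, a separate scale per panel) under 5 treatments of the data, shown by marker. In XX vs XO the spike-in values of all 9 genes lie at or below 0, from -0.97 to -0.01, whereas with the gene total alone 7 of the 9 lie above 0.

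Ratios between 2 of these transcripts within a pool do not depend on the scaling factor. The ratio of Fmn2 to Spire1 UMIs was 13.5, 18.5 and 7.86 in XX1 to XX3, 27.7, 8.28 and 4.64 in XO1 to XO3 and 14.7, 10.1 and 6.48 in XY1 to XY3. Formin transcripts thus exceeded Spire1 transcripts in every pool, with the widest spread among XO pools. The ratio of Actb to Actg1 was 0.393, 0.434 and 0.273 in XX, 0.930, 0.243 and 0.272 in XO and 0.797, 0.420 and 0.363 in XY pools, in the order of replicate numbers. It was below 1 in all 9 pools, so that γ-actin was the more abundant of these actins throughout, by the smallest margin in XO1 and XY1. The ratio of Actr2 to Actr3 was 0.716, 0.765 and 0.622 in XX, 1.33, 0.590 and 1.0 in XO and 1.0, 0.590 and 0.823 in XY pools. The ratio of Cfl1 to Actb was 1.12, 1.32 and 1.26 in XX, 1.63, 1.13 and 1.17 in XO and 1.18, 1.24 and 0.871 in XY pools. These ratios ranged from 0.590 to 1.33 for the subunits and from 0.871 to 1.63 for turnover, and they overlapped between genotypes. No ratio differed between the 3 genotypes, with p = 0.864 for Fmn2 to Spire1, 0.729 for Actb to Actg1, 0.525 for Actr2 to Actr3 and 0.593 for Cfl1 to Actb (exact permutation test of the F statistic, two-sided, 1680 assignments). For Spire1 to Spire2 it was 0.232 (exact permutation test), a value that rests on the 0.5 UMI added to counts of 0, and the adjusted p over the 5 ratios was 0.864 for each. The smallest p that this design allows is 0.00357.

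**Figure D4:**
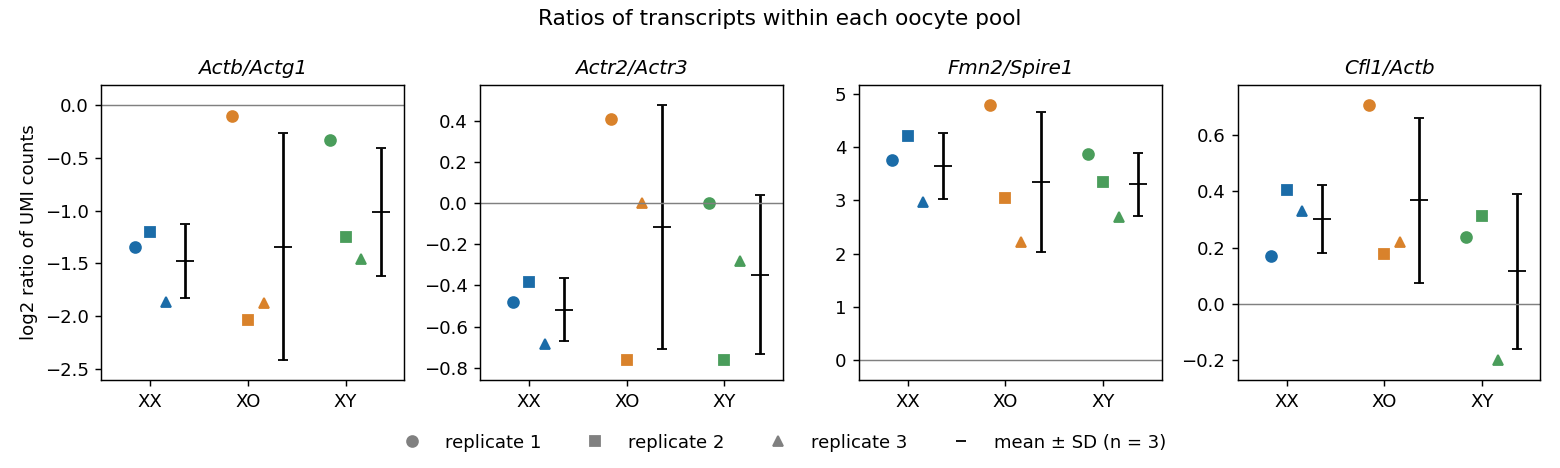
Log2 ratio of the UMI counts of 2 genes within a pool (y axis, a separate scale per panel, grey line at 0 for equal counts) in the 3 XX, 3 XO and 3 XY pools; points are pools and bars the mean ± SD (n = 3). Fmn2 exceeds Spire1 and Actg1 exceeds Actb in all 9 pools, and XO1 has the highest value of every ratio shown.

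Within the group, levels varied together between pools along a pattern that cut across the genotypes. Over the 9 pools, Actg1 followed Spire1 (Pearson r = 0.88 on the log2 scale), Actr3 (r = 0.84) and Myo5b (r = 0.79). Rab11a ran opposite to Actr3 (r = -0.90) and to Actg1 (r = -0.74) and in the same direction as Cfl1 (r = 0.78). Fmn2 ran in the same direction as Cfl1 (r = 0.71) and Rab11a (r = 0.68) and opposite to Actr3 (r = -0.50). It was little related to Myo5b (r = 0.06) and to Spire1 (r = -0.21). Actb was closest to Actr2 within the group (r = 0.80), and over all genes tested to Cdc14a (r = 0.97), Ak7 (r = 0.92) and Kifc1 (r = 0.91). XO1 carried much of this pattern, with the highest Rab11a and Cfl1 and the lowest Spire1, Actr3 and Actg1 of all 9 pools. XY1 came next for high Rab11a (81.3 normalized CPM) and low Actg1 (45.5). In each genotype, Spire1, Myo5b and Actg1 were highest in the pool of replicate number 3, so the pattern partly followed the replicate number. These coefficients are descriptions, since the points share libraries and scaling factors and come from 3 genotypes.

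Other genes of the actin machinery were examined in lists by function, with calls at the same unadjusted threshold and adjusted p-values over all genes tested beside them. Of the formins and other nucleators, 8 of 14 were tested, and 4 were lower in XX than in XO (Fmn1, Cobl, Fmnl2 and Fmnl3), beside 16.7% of all genes tested, with a list median of -0.48. Fmn1, a formin of the same family as Fmn2, was at 10.3, 10.5 and 11.3 normalized CPM in XX1 to XX3, at 34.7, 30.5 and 23.1 in XO1 to XO3 and at 34.9, 15.95 and 21.4 in XY1 to XY3. All XX pools were below all XO pools, as for 13.6% of all genes tested. They were also below all XY pools, for which no share of all genes was computed. Fmn1 was lower in XX than in XO by -1.46 ± 0.34 (SE, edgeR, adjusted p = 0.203) and lower than in XY by -1.16 ± 0.34 (adjusted p = 0.530), and both calls were kept with TMM factors (-1.04 and -0.98) and in every other alternative run. Cobl, a nucleator with WH2 domains, was lower in XX than in XO by -1.86 ± 0.53 (adjusted p = 0.203) and lower than in XY by -1.37 ± 0.53 (adjusted p = 0.752), from only 4 to 18 UMIs per pool. Fmn1 and Cobl were the 2 of the 8 that were lower in XX than in XY, beside 4.39% of all genes tested. Fmnl3 was lower in XY than in XO (-2.36 ± 1.00, adjusted p = 0.498), the only one of the list, beside 8.24% of all genes tested, with 3, 46 and 110 UMIs in XO1 to XO3. Daam1, the most abundant of the list, was at 121 ± 15.1 (XX), 136 ± 73.3 (XO) and 116 ± 29.3 (XY), as mean ± SD (n = 3) and did not pass in any comparison.

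Of the other subunits of the Arp2/3 complex, 5 of 8 were tested. Arpc1b alone passed (1 of 5, beside 16.7% of all genes tested for XX and 8.24% for XY), lower than in XO by -1.44 ± 0.59 in XX (adjusted p = 0.253) and by -1.45 ± 0.59 in XY oocytes (SE, edgeR, adjusted p = 0.491), from 4 to 34 UMIs per pool. Medians of this list were -0.12 for XX minus XO, -0.36 for XX minus XY and 0.37 for XY minus XO. Arpc3, its most abundant member, was at 21.7, 149 and 181 normalized CPM in XO1 to XO3 and at 45.6 ± 14.1 in XX and 69.9 ± 49.9 in XY oocytes, with no call. Of the activators and inhibitors of Arp2/3, 16 of 23 were tested, and 1 (6.25%, beside 16.7% of all genes tested) was lower in XX than in XO, Wasf1, a subunit of the WAVE complex (-0.95 ± 0.36, adjusted p = 0.234). Their medians were -0.39, -0.12 and -0.36 in the 3 comparisons. Cdc42, a GTPase that activates N-WASP, was the most abundant, at 647 ± 113 (XX), 522 ± 32.3 (XO) and 696 ± 111 (XY), and did not pass with the spike-in factors.

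Of the genes for actin monomer binding, severing and capping, 16 of 23 were tested, and 3 (18.8%, beside 16.7% of all genes tested) were lower in XX than in XO, with a list median of -0.64. These were Dstn, which encodes destrin, a relative of cofilin (-2.28 ± 0.74, adjusted p = 0.203), Wdr1, a cofactor of cofilin (-1.36 ± 0.49, adjusted p = 0.223), and Ssh2, a cofilin phosphatase (-1.32 ± 0.54, adjusted p = 0.252). Wdr1 was also lower in XY than in XO (-1.35 ± 0.49, adjusted p = 0.485). Dstn was at 17.6, 120 and 207 normalized CPM in XO1 to XO3 and at 23.5 ± 10.7 in XX oocytes, so that XO1 lay within the range of the XX pools. Capza1, a capping protein subunit and the most abundant of the list, was at 254 ± 49.5 (XX), 256 ± 9.47 (XO) and 283 ± 54.7 (XY) and did not pass.

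Of the Rab11 and myosin V partners, 15 of 21 were tested, and 2 (13.3%, beside 16.7% of all genes tested) were lower in XX than in XO. These were subunits of the exocyst, a vesicle tethering complex, Exoc4 (-1.82 ± 0.51, adjusted p = 0.203) and Exoc3 (-1.97 ± 0.85, adjusted p = 0.267). Exoc4 was also lower in XY than in XO (-1.19 ± 0.50, adjusted p = 0.496). Exoc4 was at 30.5, 79.1 and 150 normalized CPM in XO1 to XO3 and at 24.4 ± 5.27 in XX and 37.8 ± 8.63 in XY oocytes, and the list median for XX minus XO was -0.43. Rab10, the most abundant of the list, was at 50.1 ± 10.3, 67.3 ± 14.2 and 57.0 ± 10.5 in XX, XO and XY oocytes and did not pass.

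Of the genes of the cortex, myosin II and actin crosslinkers, 20 of 28 were tested, and 7 were lower in XX than in XO (Ezr, Myl12b, Myh10, Actn4, Tpm3, Myl6 and Myl12a), beside 16.7% of all genes tested, with a list median of -0.58. Ezr encodes ezrin, which links actin to the membrane, and was lower in XX (-2.41 ± 0.53, adjusted p = 0.203) and in XY (-1.35 ± 0.49, adjusted p = 0.485) than in XO, from 3 to 20 UMIs per pool. Myl12b, a myosin II light chain, was lower in XX (-1.60 ± 0.57, adjusted p = 0.218) and in XY (-1.49 ± 0.57, adjusted p = 0.485) than in XO, with 16.6, 71.9 and 117 normalized CPM in XO1 to XO3. Anln, which encodes the actin-bundling protein anillin of the cytokinetic ring, moved the other way. It was at 238, 188 and 180 normalized CPM in XY1 to XY3, at 124, 115 and 121 in XO1 to XO3 and at 145, 127 and 123 in XX1 to XX3. All XY pools were above all others, and the share of all genes tested with this order was not computed. Anln was higher in XY than in XO by 0.75 ± 0.26 (adjusted p = 0.485) and lower in XX than in XY by -0.62 ± 0.26 (adjusted p = 0.799). With TMM factors these values were 1.03, still past the threshold, and -0.47, no longer past it. Rdx, the radixin gene and by far the most abundant of the list, was at 8831 in XO1, 4850 in XY1 and between 2141 and 3434 in the other 7 pools, and did not pass in any comparison.

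No gene of these 6 lists passed after adjustment over all genes tested (edgeR). In XX against XO, 18 of the 80 list genes tested (22.5%) were lower with the spike-in factors, beside 16.7% of all genes tested, and 0 were higher, beside 1.4%. The direction of these calls depended on the treatment of the data. TMM factors on the genes gave 5 lower (Fmn1, Cobl, Dstn, Exoc4 and Ezr) and 2 higher, the gene total alone 5 lower and 5 higher, and the batch-regressed values 5 lower and 27 higher. Surrogate variables gave 29 lower and 2 higher. Over all 10993 genes tested, TMM factors gave 662 lower and 649 higher, and the gene total alone 421 lower and 986 higher. Batch-regressed values gave 814 lower and 3972 higher over all genes, and surrogate variables 3598 lower and 624 higher. Of the 18, 5 remained without XO3 (Fmn1, Cobl, Wasf1, Exoc4 and Ezr), 6 without XX2, 8 without XX1, and 10 without XO2 or without XX3. In XY against XO, 6 of the 80 were lower (7.5%, beside 8.24%) and 1 was higher, Anln (beside 1.69%). TMM factors gave 2 lower (Wdr1 and Myl12b) and 4 higher, the gene total alone 0 lower and 9 higher, and the batch-regressed values 5 lower and 31 higher. Over all 10993 genes tested, the same treatments gave 404 lower and 593 higher, 214 lower and 1001 higher, and 608 lower and 4117 higher. Leaving out XO3 left Anln as the only call, and leaving out XY1 or XY2 left 2 of the 7. In XX against XY, 3 of the 80 were lower (3.75%, beside 4.39%), Fmn1, Cobl and Anln, and the call of Cobl was lost without XX1, XX2 or XY1. The call of Anln in XX against XY was lost without any single one of the XX or XY pools or without XO2. In XY against XO, that of Anln was lost without XY1 (log2 difference 0.62), without the filter and with the 6 pools of the pair alone (0.75 each).

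**Figure D5:**
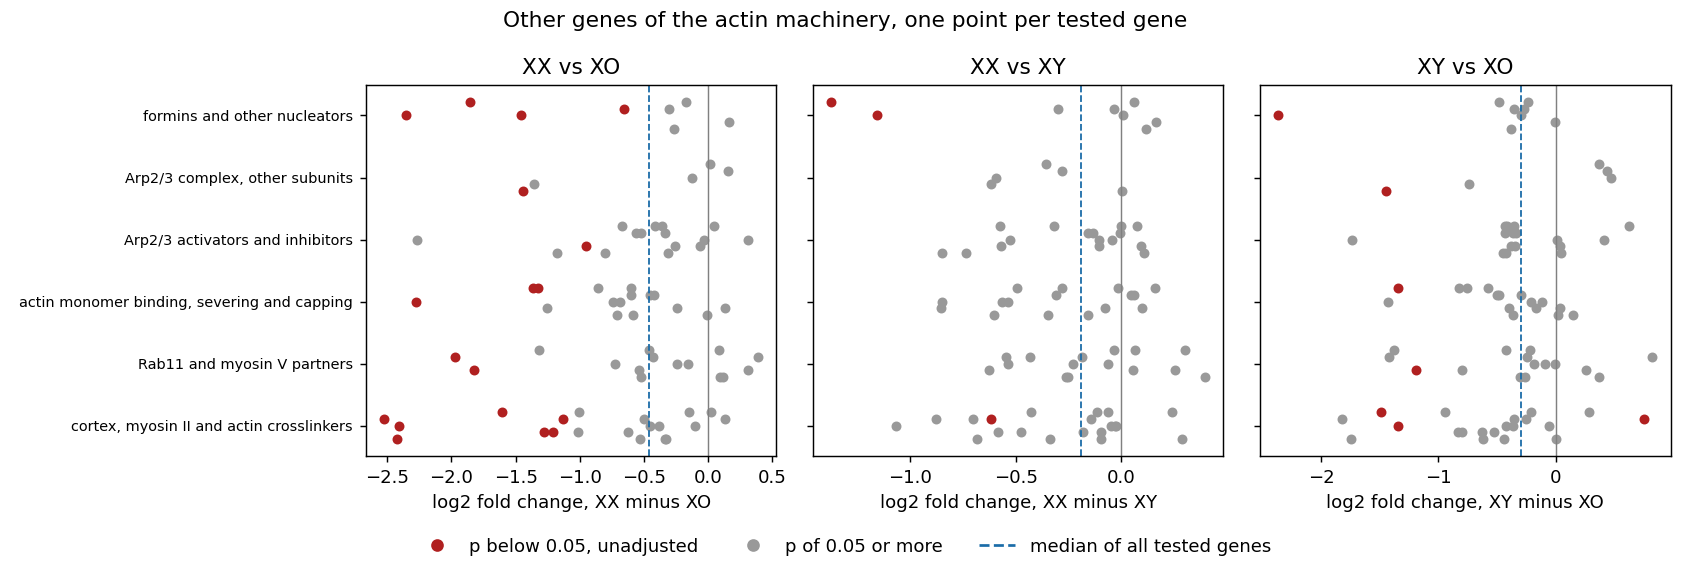
Log2 differences (x axis, first minus second genotype, a separate scale per panel) of the tested genes of 6 lists of the actin machinery, one point per gene, with the dashed line at the median of all genes tested. With the spike-in factors shown, points past the unadjusted threshold lie to the left of 0 in XX vs XO, where they number 18, and include 1 gene to the right in XY vs XO, Anln.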

How the data were processed

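RNA of 9 pools of oocytes (3 each of XX, XO and XY, grouped by the sample labels) was analysed. The authors aligned stranded reads with HISAT2 to GRCm38 and Gencode, and deposited UMI counts per gene with 79 ERCC spike-ins. A second deposited matrix holds a signal that the authors call normalized CPM. When checked, its columns equalled the counts scaled by the gene total and by a TMM factor taken from the spike-ins. Another deposited matrix gives log2 values after the authors had removed batch effects by regression. Versions of these tools are not given in the sources used here.

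Counts were tested with edgeR 4.0.16 (quasi-likelihood F test, two-sided, R 4.3.3), with the spike-in factors, 1 mean per genotype and all 9 pools in 1 fit, on the 10993 genes kept by filterByExpr (minimum count 10). Genes were called at an unadjusted p of 0.05, as the study did, and Benjamini-Hochberg adjusted p-values over all genes tested stand beside the calls. Ratios of UMI counts with 0.5 added were compared by exact permutation tests. Intervals are 95% intervals. Alternatives were TMM factors on the genes, the gene total alone, DESeq2 1.42.0, no filter, the replicate number as a block, surrogate variables (sva 3.50.0, limma 3.58.1), the batch-regressed values, the 6 pools of a pair alone, other added counts for the ratios, and leaving out each pool. Totals of 3 UMIs over a genotype, the limit of a count of 0, equal 0.335 (XX), 0.532 (XO) and 0.351 (XY) normalized CPM, and cover counting error only.

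Pairing by replicate number was checked by correlating the deviations of pools from the means of their genotypes across the genes tested. For XO and XY pools of the same number the correlations were 0.830, 0.278 and 0.773. They were 0.468, -0.447 and 0.679 for XX and XO and 0.435, -0.060 and 0.726 for XX and XY. The main tests and the permutation tests treated all pools as unpaired, although XO and XY pools of the same number deviated together. The replicate number entered only as a block, in an alternative run. Neither labels nor methods say what a number marks.

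The 10 genes and the lists were chosen with earlier results of these data known. Named in addition were, per list and comparison, up to 3 called genes of lowest p and the gene of highest mean level, the 3 genes most like Fmn2 and Actb, Actg-ps1, Gdf9, the marker genes of highest level and Ddx3y. Actn4, Tpm3, Myl6, Myl12a and the markers given by their UMI counts were named after their values were seen. Gencode vM21, which gave exon lengths, held 99.8% of the identifiers, and the coordinates of all 10 genes were the same there.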

Additional observations from a re-analysis of the deposited data

How the results depend on the processing

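Of the 10 genes, 1 passed in XX against XO and 1 in XY against XO with the spike-in factors, and these counts were 0 and 0 with TMM factors on the genes, with the gene total alone and with the 6 pools of a pair alone. They were 0 and 1 with DESeq2, 1 and 0 without the filter, 3 and 1 with surrogate variables and 3 and 4 with batch-regressed values. Of all 10993 genes tested, surrogate variables gave 3598 lower in XX and 2323 lower in XY, both against XO. Batch-regressed values gave 3972 higher in XX and 4117 higher in XY. Leaving out single pools gave 0 to 3 in XX against XO and 0 to 2 in XY against XO. Both were highest without XO1, where 3958 and 3195 of 11590 genes were lower than in XO. In XX against XY the count was 0 in every alternative run. The number of ratios below a p of 0.05 was 0, and 0 to 1 when a pool was left out (Spire1 to Spire2 without XO2, exact permutation p = 0.0393). Log2 differences changed sign as follows, none of them called in the original direction except Myo5b in XX minus XO. With TMM factors on the genes, the sign turned in XX minus XO for Fmn2 0.26, Actr2 0.085, Actr3 0.45, Actb 0.081 and Actg1 0.041, in XX minus XY for Fmn2 0.099, Myo5b 0.14, Actr3 0.11 and Actg1 0.13, in XY minus XO for Fmn2 0.16, Actr2 0.11 and Cfl1 0.035. With the gene total alone, the sign turned in XX minus XO for Fmn2 0.39, Rab11a 0.080, Actr2 0.21, Actr3 0.57, Actb 0.21, Actg1 0.15 and Cfl1 0.12, in XX minus XY for Fmn2 0.090, Myo5b 0.12, Actr3 0.10 and Actg1 0.11, in XY minus XO for Fmn2 0.30, Spire1 0.11, Rab11a 0.11, Actr2 0.26, Actg1 0.036 and Cfl1 0.19. With DESeq2, the sign turned in XX minus XO for Fmn2 0.14 and Actr3 0.34, in XX minus XY for Fmn2 0.10, Myo5b 0.16, Actr3 0.12 and Actg1 0.16, in XY minus XO for Fmn2 0.035. With batch-regressed values, the sign turned in XX minus XO for Fmn2 0.30, Spire1 0.73, Myo5b 0.052, Actr2 0.25, Actr3 0.84, Actb 0.22 and Actg1 0.92, in XX minus XY for Fmn2 0.099, Myo5b 0.14, Actr3 0.12 and Actg1 0.19, in XY minus XO for Fmn2 0.20, Spire1 0.98, Actr2 0.29, Actg1 0.73 and Cfl1 0.055. With surrogate variables, the sign turned in XX minus XO for Actr3 0.14 and Actg1 0.012, in XY minus XO for Spire1 0.15 and Actg1 0.013. With the replicate block, values turned in XX minus XO for Actr3 0.043 and in XX minus XY for Myo5b 0.030, Actr3 0.0007 and Actg1 0.13, and no call of the 10 genes changed. Over all genes, the block moved the calls lower in XY than in XO from 906 to 1553. Leaving out single pools turned the sign within these ranges, in XX minus XO for Rab11a from -0.72 to 0.10, Actr3 from -0.26 to 0.18, in XX minus XY for Fmn2 from -0.14 to 0.093, Rab11a from -0.37 to 0.033, Myo5b from -0.15 to 0.23, Actr3 from -0.16 to 0.11, Actg1 from -0.30 to 0.37, in XY minus XO for Spire1 from -0.80 to 0.32, Rab11a from -0.54 to 0.27, Actr2 from -0.31 to 0.0075, Actr3 from -0.23 to 0.21, Actb from -0.078 to 0.15. The causes were not tested. With 3 pools per genotype, precision was lowest for Spire1 (SE of 0.56 on the log2 scale for XX minus XO), and Spire2 was below the depth needed for a test.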
